A study of Homo sapiens with 12 samples.

Results

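The genes described here are long intergenic non-coding RNAs, named LINC followed by a number, that were expressed in 2 human lines of T-cell acute lymphoblastic leukaemia (T-ALL). They were selected on their measured level: they are the rows of the deposited expression table whose symbol is LINC and digits only and whose value reached 1 FPKM (fragments per kilobase of transcript and per unit of library size, a level per length) in 3 or more of 12 libraries. Of 1035 LINC rows, 121 met this rule, among 13840 of all 25146 rows that passed the same level filter. Of the 914 LINC rows that did not, 515 were listed at 0 in every library and 39 reached 1 FPKM in only 1 or 2 libraries. By the value that decides the rule (the lowest of the 3 highest libraries), LINC01679 (1 FPKM), LINC01305 (1.01 FPKM) and LINC02043 (1.02 FPKM) lay just inside, and LINC00634 (0.99 FPKM), LINC02012 (0.98 FPKM) and LINC01123 (0.97 FPKM) just outside. The rule used the level and not the treatment, but a member that passed through 1 condition alone had to differ between conditions: 21 members were under 1 FPKM in all 6 untreated libraries and 2 in all 6 treated ones, while 46 reached 1 FPKM in all 12. Others, such as LINC01136, LINC00877 and LINC00441, had fewer than 3 untreated libraries at 1 FPKM and also needed treated ones to meet the rule.

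The 4 groups, each of 3 libraries, were Jurkat with chidamide, Jurkat untreated, Molt-4 with chidamide and Molt-4 untreated. Chidamide (tucidinostat) is a benzamide that inhibits mainly class I histone deacetylases, given at 2 µM for a stated 48 h, while the treated libraries carry 48, 49 and 50 h in step with their replicate number. Jurkat and Molt-4 are established lines grown from the blood of patients with T-ALL, and the letters J and M in the library names were read as these lines, the only ones the growth protocol names. The labels do not say whether the 3 libraries per group stem from separate cultures. The spread that the p-values rest on is that between these libraries and may be technical.

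Long intergenic non-coding RNAs are transcribed by RNA polymerase II like messenger RNAs, and are often spliced and polyadenylated, but most have no long reading frame. Many are low in abundance and restricted to few cell types, and many start close to the promoter of a coding gene on the opposite strand, an arrangement called head-to-head or divergent. Histone deacetylases remove acetyl groups from histone tails at promoters and enhancers, and inhibitors of these enzymes are known to change the transcription of both coding and non-coding genes. In RefSeq, 111 of the 121 members are annotated as long non-coding RNA, 6 as protein-coding and 4 as transcribed pseudogenes, and 28 were matched through an older symbol. Among those 6 are LINC00998 (SMIM30, which encodes a small membrane protein) and LINC00094 (BRD3OS).

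Start regions are shown for members that moved in the same direction in both lines and for 2 that start head-to-head with a coding gene, since these carry the comparisons below. Each holds 250 bases before and 50 after the start, from RefSeq on GRCh38.p14, written 5′ to 3′ on the strand of the gene. Capitals mark, on either strand, CACGTG (the E-box letters that MYC and its relatives bind), TTCCCA (the core letters that RBPJ, the DNA-binding partner of NOTCH, binds), GGGCGG (the GC box) and TATAAA (the TATA box). The regions are LINC01315 at chr22:42369159-42369458 (minus strand), LINC00892 at chrX:136639293-136639592 (plus strand), LINC00877 at chr3:72100406-72100705 (minus strand), LINC01882 at chr18:12749373-12749672 (minus strand), LINC01237 at chr2:241881113-241881412 (plus strand), LINC01089 at chr12:121802897-121803196 (minus strand) and LINC01136, now BTG2-DT, at chr1:203305276-203305575 (minus strand). The first 3 belong to members that were higher with chidamide in both lines:
LINC01315: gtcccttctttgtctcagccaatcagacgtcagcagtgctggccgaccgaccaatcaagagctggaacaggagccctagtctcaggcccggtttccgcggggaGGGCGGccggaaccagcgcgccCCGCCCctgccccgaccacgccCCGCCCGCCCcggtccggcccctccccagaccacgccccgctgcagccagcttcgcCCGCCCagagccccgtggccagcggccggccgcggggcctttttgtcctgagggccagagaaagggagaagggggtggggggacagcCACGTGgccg
LINC00892: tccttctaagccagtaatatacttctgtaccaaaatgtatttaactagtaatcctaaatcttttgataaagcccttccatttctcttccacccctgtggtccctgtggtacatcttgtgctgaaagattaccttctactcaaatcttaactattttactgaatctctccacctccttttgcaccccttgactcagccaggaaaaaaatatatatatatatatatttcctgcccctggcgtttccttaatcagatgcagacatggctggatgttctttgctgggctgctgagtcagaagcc
LINC00877: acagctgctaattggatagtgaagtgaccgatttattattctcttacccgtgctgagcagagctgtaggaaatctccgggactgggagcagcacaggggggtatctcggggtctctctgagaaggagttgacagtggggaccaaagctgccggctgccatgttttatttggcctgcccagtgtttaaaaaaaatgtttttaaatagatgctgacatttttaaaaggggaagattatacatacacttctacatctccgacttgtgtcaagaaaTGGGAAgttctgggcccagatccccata
LINC01882, LINC01237 and LINC01089 were lower in both lines:
LINC01882: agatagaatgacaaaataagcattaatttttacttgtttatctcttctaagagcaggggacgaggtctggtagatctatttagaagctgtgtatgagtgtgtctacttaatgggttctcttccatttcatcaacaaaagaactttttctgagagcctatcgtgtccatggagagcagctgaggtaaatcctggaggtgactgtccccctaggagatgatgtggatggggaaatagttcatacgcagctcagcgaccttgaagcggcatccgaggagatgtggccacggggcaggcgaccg
LINC01237: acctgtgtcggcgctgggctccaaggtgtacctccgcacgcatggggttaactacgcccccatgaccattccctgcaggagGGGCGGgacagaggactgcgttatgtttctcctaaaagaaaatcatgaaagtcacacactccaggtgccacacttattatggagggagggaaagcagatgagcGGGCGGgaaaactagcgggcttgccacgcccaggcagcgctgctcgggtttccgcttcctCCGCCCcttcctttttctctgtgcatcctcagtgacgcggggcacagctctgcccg
LINC01089: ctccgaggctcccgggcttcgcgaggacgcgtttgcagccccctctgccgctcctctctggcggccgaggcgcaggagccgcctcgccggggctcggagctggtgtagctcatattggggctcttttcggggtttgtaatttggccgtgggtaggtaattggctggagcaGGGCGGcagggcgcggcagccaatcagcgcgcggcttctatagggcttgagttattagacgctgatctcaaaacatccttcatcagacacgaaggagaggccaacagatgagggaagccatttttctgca
LINC01136 starts head-to-head with BTG2 and was chosen for display after its values were seen:
LINC01136: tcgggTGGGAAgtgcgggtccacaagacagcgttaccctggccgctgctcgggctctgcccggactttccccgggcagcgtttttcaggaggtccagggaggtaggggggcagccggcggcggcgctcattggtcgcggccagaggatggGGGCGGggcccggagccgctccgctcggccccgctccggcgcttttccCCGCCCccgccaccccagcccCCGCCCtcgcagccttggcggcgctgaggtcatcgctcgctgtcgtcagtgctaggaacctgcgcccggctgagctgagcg

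The 3 start regions of rising members differed in composition, since that of LINC01315 has 72.7% G and C with 28 CpG dinucleotides, 5 GC boxes (of which adjoining ones overlap) and 1 E-box, while that of LINC00892 has 40.3% G and C, 1 CpG and none of these motifs. The region of LINC00877 has 46.0% G and C and 1 match to TTCCCA. Those of the falling LINC01882, LINC01237 and LINC01089 hold 46.3%, 59.3% and 61.0% G and C. Over the 90 members with a start region in the table the median G and C content was 57.8%, against 58.3% over all 27305 start regions. A GC box was found in 48.9% of the members' regions against 44.6% of all, an E-box in 5.56% against 7.43%, TTCCCA in 28.9% against 24.3% and a TATA box in 11.1% against 12%. A match describes letters in the window and not a bound site. Of the 25 members that were higher with chidamide in both lines and have a region, 9 (36.0%) held a GC box and the median was 8 CpG, and of the 29 called in neither line 16 (55.2%) held one and the median was 16 CpG. These shares are descriptions and carry no test.

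Members were low in level. The median over members of the mean FPKM of 12 libraries was 2.59 (0.344 to 52.9), against 14.3 over all rows that passed the filter. A level of at least 1 FPKM in all 12 libraries was reached by 46 members (38%), against 75.6% of all rows. The number of members at 1 FPKM or more per library was 81 to 85 in chidamide-treated Jurkat and 60 to 69 in untreated Jurkat, and 105 to 107 in chidamide-treated Molt-4 and 88 to 91 in untreated Molt-4. The count over all rows moved likewise, with 12567 to 12606 rows in treated Jurkat against 11643 to 11866 in untreated Jurkat. It was 13222 to 13228 in treated Molt-4 against 11965 to 11989 in untreated Molt-4. The rule let in 21 members through treated libraries alone and 2 through untreated ones alone. Further members had some untreated libraries at 1 FPKM but needed treated ones to pass. For this reason nothing is read from the members' counts. The summed level of the members was 548 ± 9.69 FPKM in treated Jurkat and 549 ± 80.9 FPKM in untreated Jurkat, and 672 ± 18.8 FPKM in treated Molt-4 and 623 ± 16.5 FPKM in untreated Molt-4 (SD, n = 3 each). In each library this was 0.0655% to 0.0874% of the total FPKM.

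The FPKM of a library summed to between 698435 and 869059, and read depth cannot be had from FPKM. Libraries of a group correlated across rows with r of 0.989 to 0.995, but untreated Jurkat replicate 3 stood apart: the SD of its log2 differences from its group was 0.332 and 0.337, where all remaining within-group pairs gave 0.233 to 0.269. The 7SL RNA genes, which encode an abundant small cytoplasmic RNA, held 2.25% to 10.1% of the total. Values without replicate 3 are given for some of the members where it lay apart from the other untreated Jurkat libraries and the result leans on it. All 8 T-lineage markers checked (the CD3 chains, CD247, CD2, CD5, CD7 and LCK) were at 9.45 FPKM or more in every library. Their summed level was 1186 to 1247 FPKM in treated Jurkat against 2023 to 2064 FPKM in untreated Jurkat, and 689 to 725 FPKM in treated Molt-4 against 831 to 912 FPKM in untreated Molt-4. Its part in the members' differences was not tested. In a bulk RNA sample, fewer cells that express a gene and less of its RNA per cell cannot be told apart.

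Changes are given as differences of group means of log2(FPKM + 1), a scale that understates the change of low genes, with the SE and the Benjamini-Hochberg adjusted p of limma, and are called at an adjusted p under 0.05. LINC02210 had the highest mean of the members, at 47.5 ± 8.42 FPKM in treated Jurkat and 49.0 ± 7.83 FPKM in untreated Jurkat, and 71.2 ± 3.66 FPKM in treated Molt-4 and 43.8 ± 3.23 FPKM in untreated Molt-4. Its log2 change with chidamide was 0.69 ± 0.13 in Molt-4 (SE, adjusted p = 0.000575), where all treated libraries were above all untreated ones, and -0.05 ± 0.13 in Jurkat (adjusted p = 0.792). LINC02210 shares a stretch of 476 near-identical bases with KANSL1 and overlaps a readthrough gene, so the assignment of its reads is uncertain. LINC00998 (SMIM30) came next, at 57.8 ± 0.564 FPKM in treated Molt-4 and 56.8 ± 2.32 FPKM in untreated Molt-4, and at 24.6 ± 1.23 FPKM in treated Jurkat and 26.7 ± 1.18 FPKM in untreated Jurkat. It did not pass the test with chidamide in either line (adjusted p = 0.733 in Molt-4 and 0.113 in Jurkat), and it was 1.06 ± 0.06 higher on the log2 scale in untreated Molt-4 than in untreated Jurkat (adjusted p = 8.14e-09). LINC00094 (BRD3OS), the other member on a list of LINC genes with a known role, was at 8.13 ± 0.396 FPKM in treated Molt-4 and 8.98 ± 0.731 FPKM in untreated Molt-4, and at 16.1 ± 2.05 FPKM in treated Jurkat and 14.2 ± 0.152 FPKM in untreated Jurkat. It did not pass the test in Molt-4 (adjusted p = 0.264) or in Jurkat (adjusted p = 0.168), and under quantile normalization it was called lower in Molt-4 (log2 change -0.38, adjusted p = 0.00415).

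Of the other highly expressed members, LINC01089 (LIMT, reported as an inhibitor of metastasis in breast cells) fell and LINC00339 rose in both lines. LINC01089 was at 20.49, 21.1 and 19.31 FPKM in treated Jurkat against 33.5, 35.19 and 48.66 FPKM in untreated Jurkat, and at 15.79, 20.54 and 21.36 FPKM in treated Molt-4 against 37.15, 34.91 and 40.73 FPKM in untreated Molt-4. The groups did not overlap in either line, and the log2 changes were -0.89 ± 0.14 in Jurkat (adjusted p = 0.000149) and -0.94 ± 0.14 in Molt-4 (adjusted p = 8.99e-05). LINC00339 had 25.7, 24.79 and 20.1 FPKM in treated Jurkat against 13.95, 12.8 and 22.76 FPKM in untreated Jurkat, where untreated replicate 3 overlapped the treated libraries. Its log2 change was 0.52 ± 0.18 in each line (adjusted p = 0.0264 in Jurkat and 0.0255 in Molt-4). Without untreated Jurkat replicate 3, that of LINC00339 in Jurkat was 0.76 (adjusted p = 0.000371). Its Jurkat call ended without untreated replicate 1 or 2 or without treated replicate 1 or 2 (adjusted p of 0.0764 to 0.113), and its Molt-4 call without untreated replicate 3 or treated replicate 1 or 2 (0.0608 to 0.101). A fit of the Jurkat libraries alone (0.108) and, in Molt-4, quantile normalization (0.0548) ended them too. LINC01184, which faces SLC12A2, was at 17.4 ± 2.75 FPKM in treated Jurkat and 18.0 ± 0.344 FPKM in untreated Jurkat, and at 15.9 ± 1.29 FPKM in treated Molt-4 and 15.6 ± 2.46 FPKM in untreated Molt-4, and it passed the test in neither line.

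With chidamide, 44 members rose and 12 fell in Jurkat, at an adjusted p under 0.05. Among all 13840 rows tested 30.9% rose and 25.4% fell, so 36.4% of members higher is near the background and 9.92% lower is below it. Without untreated Jurkat replicate 3 the counts were 49 higher and 11 lower. No share of all rows is given for that fit, so nothing is read from this shift. In Molt-4, 44 members rose and 21 fell, which is 36.4% against a background of 35.4% and 17.4% against a background of 24.6%. Of the members called higher, 15 in Jurkat and 19 in Molt-4 were under 1 FPKM in every untreated library. Such rows made up 17.4% of members and 5.63% of all rows. The shares of members higher, in each line and in both, therefore lean on the level rule. The median log2 change was 0.18 over members and 0.04 over all rows in Jurkat, and 0.17 and 0.08 in Molt-4. These splits rest on the scaling: under quantile normalization, which gives every library the same distribution of values, 20 members were higher and 23 lower in Jurkat and 22 higher and 56 lower in Molt-4, with medians of -0.08 and -0.33. That setting lowered the median of all rows by 0.08 in Jurkat and by 0.17 in Molt-4. It called 3589 of the 13840 rows higher and 4039 lower in Jurkat, and 3540 higher and 5039 lower in Molt-4. The members' share lower was then above that of all rows in Molt-4, the reverse of the main fit, and still below it in Jurkat. Their share higher was below that of all rows in both lines. Among the 46 members that reached 1 FPKM in all libraries, 13 were higher (28.3%) and 5 lower (10.9%) in Jurkat and 9 higher (19.6%) and 5 lower (10.9%) in Molt-4. Among all 10468 rows that reached 1 FPKM in all libraries, 26% were higher and 31.5% lower in Jurkat, and 27.4% higher and 30.5% lower in Molt-4. This set leaves out genes that crossed 1 FPKM with chidamide, such as LINC01882, LINC01225 and LINC00694. Members are lower in level than all rows and so are cut more often. These shares are therefore not free of selection, and nothing is read from them.

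**Figure D1:**
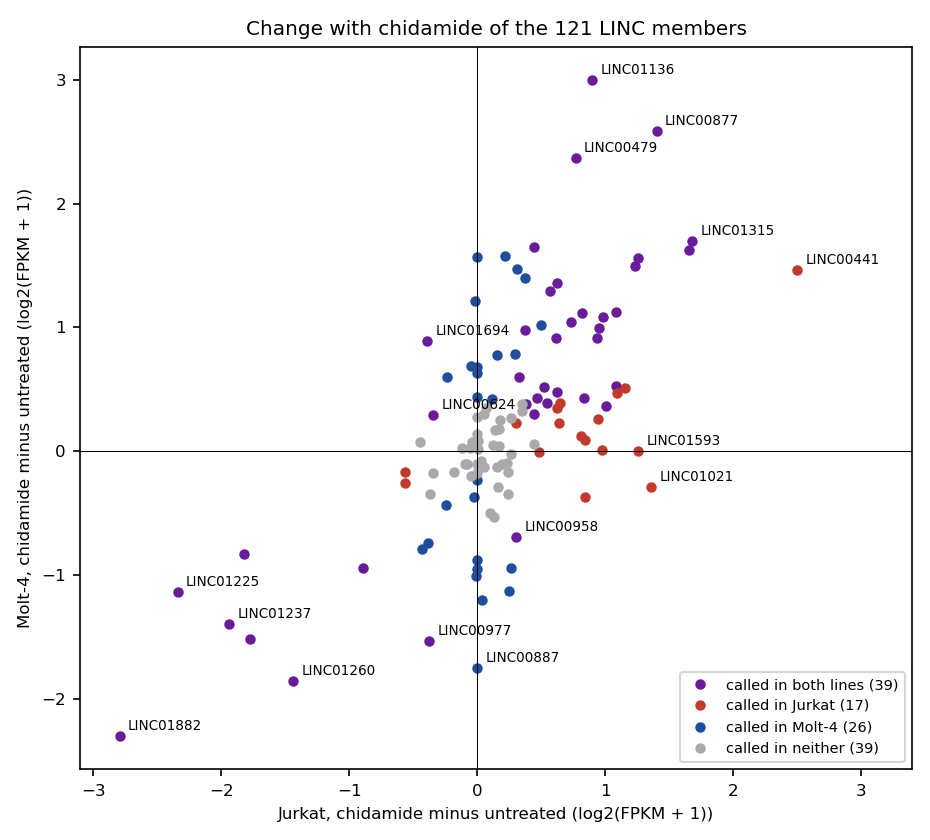
Change with chidamide of each of the 121 members in Jurkat (horizontal) and in Molt-4 (vertical), as the difference of mean log2(FPKM + 1), treated minus untreated. Colours give the lines in which a member was called, and LINC01882 at -2.79 and -2.30 and LINC01136 at 0.90 and 3.0 lie at opposite ends.

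The calls coincided in direction for 36 members and opposed for 3. In both lines 28 members (23.1%, against 21.7% of all rows) were higher and 8 (6.61%, against 16.2% of all rows) were lower, while 39 (32.2%, against 24.6% of all rows) were called in neither. The opposed calls were also near the background, with 2 members lower in Jurkat and higher in Molt-4 (1.65%, against 1.89% of all rows) and 1 the other way (0.826%, against 0.961%). All treated libraries lay above all untreated ones for 42 members in Jurkat (33.3% of all rows did) and 45 in Molt-4 (39.0% of all rows), and below for 15 in Jurkat and 26 in Molt-4 (27.4% and 28.3% of all rows). Counts for other non-coding classes stand beside these: of 16 small nucleolar RNA host genes (SNHG rows) 1 was higher and 11 lower in each line, and of 258 antisense-named rows 65 were higher and 34 lower in Jurkat and 58 higher and 35 lower in Molt-4. Of 11 tested long non-coding RNAs with a name of their own, such as GAS5 and MIAT, 4 were higher and 5 lower in Jurkat and 6 higher and 2 lower in Molt-4. No test of a difference between these classes was made.

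Of the members that rose in both lines, the largest by the smaller of the 2 changes were LINC01315, LINC00892, LINC00877, LINC00173 and LINC01137. LINC01315 was at 4.26, 3.53 and 3.58 FPKM in treated Jurkat against 0.59, 0.44 and 0.44 FPKM in untreated Jurkat, and at 3.07, 3.49 and 3.34 FPKM in treated Molt-4 against 0, 0.25 and 0.86 FPKM in untreated Molt-4. Its log2 changes were alike in size, 1.68 ± 0.18 in Jurkat (adjusted p = 6.92e-06) and 1.70 ± 0.18 in Molt-4 (adjusted p = 5.56e-06). LINC00892, which lies beside CD40LG, the gene of a ligand on activated T cells, had 3.53, 2.57 and 3.52 FPKM in treated Jurkat against 0.13, 0.69 and 0.23 FPKM in untreated Jurkat, and 2.91, 4.35 and 2.54 FPKM in treated Molt-4 against 0.65, 0.28 and 0.19 FPKM in untreated Molt-4. Both genes were under 1 FPKM in every untreated library, and so entered the analysis through the treated ones. The values tested are those that selected them, so the rises of LINC01315 and LINC00892 are given as a description. For LINC00892 the log2 changes were 1.65 ± 0.20 in Jurkat (adjusted p = 1.81e-05) and 1.63 ± 0.20 in Molt-4 (adjusted p = 1.79e-05). Since these levels are low, the sizes depend on the constant added before the logarithm: with 0.1 in place of 1, the changes of LINC01315 were 2.73 in Jurkat and 3.39 in Molt-4, and those of LINC00892 were 3.06 in Jurkat and 2.91 in Molt-4.

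LINC00877 was at 5.06, 1.03 and 1.02 FPKM in treated Jurkat against 0.04, 0.29 and 0 FPKM in untreated Jurkat, and at 5.91, 6.27 and 13.38 FPKM in treated Molt-4 against 0.19, 1.17 and 0.29 FPKM in untreated Molt-4. The treated libraries were above the untreated ones in both lines, but 1 treated library of each line was well above the other 2. Untreated Molt-4 replicate 2 was the only untreated library of LINC00877 at 1 FPKM or more, so the treated values tested helped to select it. The log2 change was 1.40 ± 0.41 in Jurkat (adjusted p = 0.0115), or 0.88 without treated Jurkat replicate 1 (adjusted p = 0.0394) and 0.91 under quantile normalization, where it was not called (adjusted p = 0.0991), and 2.59 ± 0.41 in Molt-4 (adjusted p = 0.000171). LINC01137, now named LITATS1, a transcript induced by TGF-β and known to restrain its signalling, was at 7.04, 7.95 and 5.93 FPKM in treated Jurkat against 2.84, 1.56 and 2.88 FPKM in untreated Jurkat. In Molt-4 it was at 2.5, 1.96 and 2.9 FPKM with chidamide against 0.12, 0.39 and 0.15 FPKM without. Its log2 changes of 1.24 ± 0.17 in Jurkat (adjusted p = 7.55e-05) and 1.5 ± 0.17 in Molt-4 (adjusted p = 1.34e-05) differed by 0.26 ± 0.25 (adjusted p = 0.46).

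LINC00173 was at 7.17, 5.33 and 8.7 FPKM in treated Jurkat against 0.71, 1.51 and 7.61 FPKM in untreated Jurkat, and at 5.95, 7.83 and 4.88 FPKM in treated Molt-4 against 1.74, 1.38 and 1.17 FPKM in untreated Molt-4. In Molt-4 the groups were apart (log2 change 1.56 ± 0.44, adjusted p = 0.0093), whereas in Jurkat untreated replicate 3 lay among the treated libraries. The Jurkat log2 change was 1.25 ± 0.44 (adjusted p = 0.0299), and 1.94 without untreated replicate 3 (adjusted p = 2.48e-05). The Jurkat call ended without untreated replicate 1 (0.77, adjusted p = 0.133), untreated replicate 2 (1.05, adjusted p = 0.101), treated replicate 1 (1.23, adjusted p = 0.0682) or treated replicate 3 (1.11, adjusted p = 0.0927), and with no level filter, under quantile normalization or in a fit of the Jurkat libraries alone (adjusted p of 0.0559 to 0.141). The other members higher in both lines had log2 changes of 0.33 or more in Jurkat and 0.30 or more in Molt-4.

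**Figure D2:**
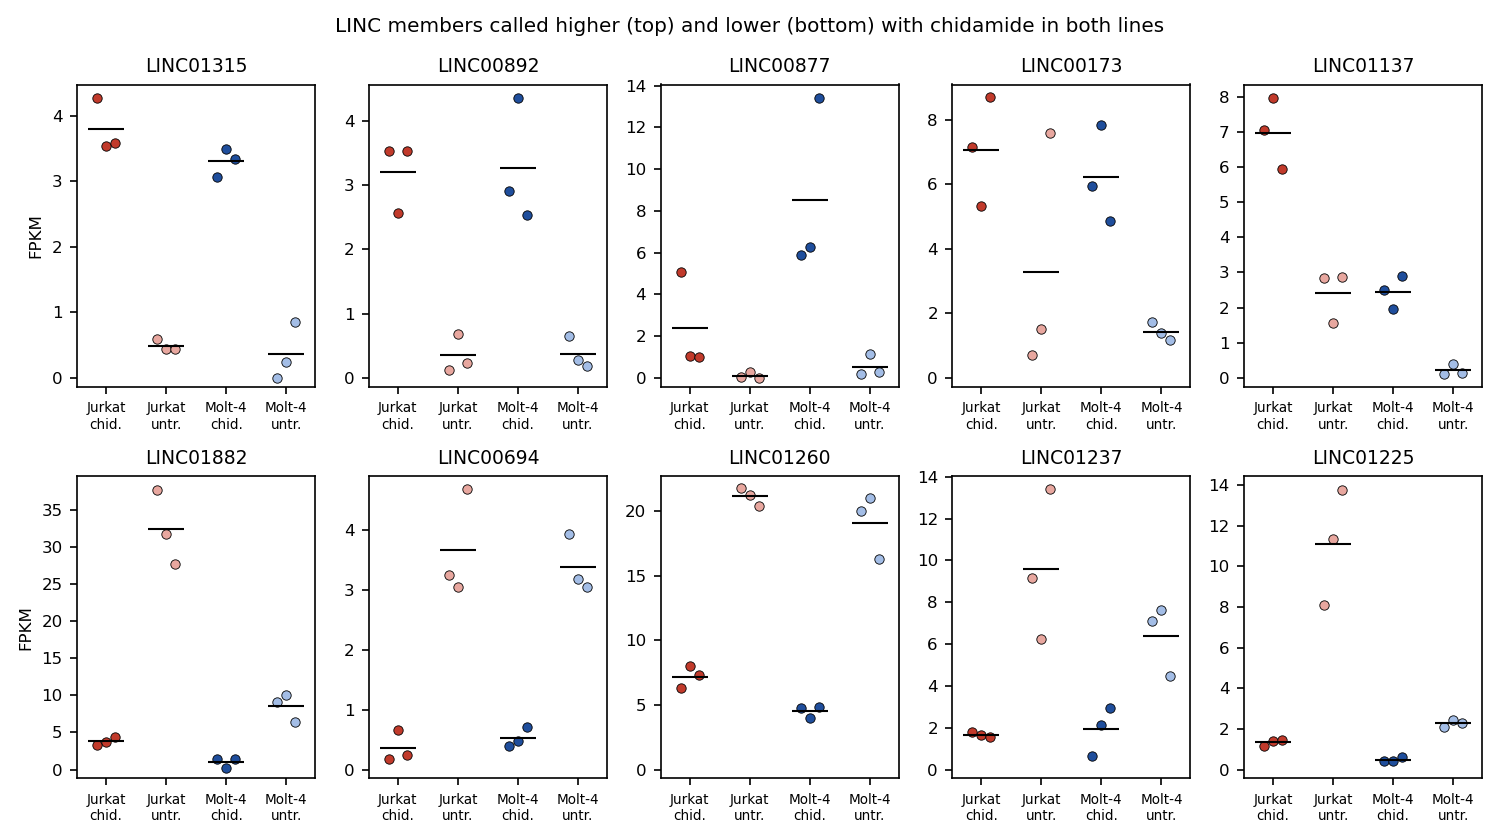
FPKM of the 5 members with the largest rise (top row) and the 5 with the largest fall (bottom row) in both lines, ranked by the smaller change, in each library (points) with the group mean (lines), on linear axes that differ between panels. The groups of a line do not overlap in any panel except LINC00173 in Jurkat, where 1 untreated library was at 7.61 FPKM.

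The fall of LINC01882 was the largest of any member in both lines. It was at 3.32, 3.76 and 4.34 FPKM in treated Jurkat against 37.75, 31.83 and 27.77 FPKM in untreated Jurkat, and at 1.42, 0.18 and 1.41 FPKM in treated Molt-4 against 9.11, 10.08 and 6.37 FPKM in untreated Molt-4. It was not among the 5 most abundant members in treated Jurkat, as it was in untreated Jurkat, with log2 changes of -2.79 ± 0.25 in Jurkat (adjusted p = 1.83e-06) and -2.30 ± 0.25 in Molt-4 (adjusted p = 7.95e-06). LINC01260 was at 6.28, 8.02 and 7.28 FPKM in treated Jurkat against 21.82, 21.23 and 20.37 FPKM in untreated Jurkat, and at 4.73, 3.99 and 4.87 FPKM in treated Molt-4 against 20.04, 21 and 16.27 FPKM in untreated Molt-4. Its log2 changes were -1.44 ± 0.11 in Jurkat (adjusted p = 5.05e-07) and -1.86 ± 0.11 in Molt-4 (adjusted p = 4.16e-08). LINC01260 lies beside ADA, the gene of adenosine deaminase, an enzyme that T-cell precursors need to clear deoxyadenosine. ADA was at 392 ± 8.39 FPKM in treated Jurkat against 884 ± 41.1 FPKM in untreated Jurkat, and at 104 ± 2.60 FPKM in treated Molt-4 against 576 ± 9.04 FPKM in untreated Molt-4 (SD, n = 3), with log2 changes of -1.17 and -2.47. Both genes fell in both lines, and ADA was the more abundant in every group. Other falling members differed: SERINC2, the coding gene nearest to LINC01225, rose, with log2 changes of 0.32 in Jurkat and 1.97 in Molt-4. Of pairs apart on the chromosome, 1 fell together in Jurkat and 2 in Molt-4. A member fell beside a neighbour that rose in 3 such pairs in Jurkat and 4 in Molt-4.

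LINC01225 and LINC00694, which RefSeq now lists as the transcribed pseudogenes LDC1P and C3orf86P, also fell in both lines. LINC01225 was at 1.17, 1.41 and 1.45 FPKM in treated Jurkat against 8.1, 11.35 and 13.78 FPKM in untreated Jurkat, and at 0.43, 0.43 and 0.6 FPKM in treated Molt-4 against 2.08, 2.44 and 2.29 FPKM in untreated Molt-4. The log2 change was -2.34 ± 0.15 in Jurkat and -1.14 ± 0.15 in Molt-4, a difference of 1.20 ± 0.21 (adjusted p = 0.00106), so the fall was larger in Jurkat on this scale. LINC00694 was under 1 FPKM in every treated library (0.18 to 0.66 FPKM in Jurkat and 0.4 to 0.71 FPKM in Molt-4) and at 3.04 to 4.67 FPKM in untreated Jurkat and 3.05 to 3.92 FPKM in untreated Molt-4. Its log2 changes were -1.77 ± 0.16 in Jurkat (adjusted p = 2.08e-06) and -1.52 ± 0.16 in Molt-4 (adjusted p = 6.67e-06). LINC00694 met the rule through untreated libraries alone, so the values tested are those that selected it and its fall is given as a description. LINC01237 and LINC01238, both on chromosome 2, fell too. LINC01237 was at 1.79, 1.66 and 1.54 FPKM in treated Jurkat against 9.17, 6.24 and 13.4 FPKM in untreated Jurkat, and at 0.67, 2.15 and 2.95 FPKM in treated Molt-4 against 7.08, 7.61 and 4.46 FPKM in untreated Molt-4. The log2 changes of LINC01237 were -1.94 ± 0.31 in Jurkat (adjusted p = 0.000192) and -1.40 ± 0.31 in Molt-4 (adjusted p = 0.0019), and those of LINC01238 -1.82 ± 0.28 in Jurkat (adjusted p = 0.000137) and -0.83 ± 0.28 in Molt-4 (adjusted p = 0.0213). Without untreated Jurkat replicate 3 the Jurkat change was -1.69 for LINC01237 (adjusted p = 0.000846) and -1.40 for LINC01238 (adjusted p = 9.69e-06).

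LINC00977 completed the members that fell in both lines. It was at 4.19, 3.52 and 3.28 FPKM in treated Molt-4 against 12.66, 12.91 and 11.9 FPKM in untreated Molt-4, and at 23.09, 22.35 and 24.02 FPKM in treated Jurkat against 28.66, 26.18 and 37.21 FPKM in untreated Jurkat. The fall in Molt-4 (log2 change -1.54 ± 0.12, adjusted p = 3.28e-07) exceeded that in Jurkat (-0.38 ± 0.12, adjusted p = 0.0155) by 1.16 ± 0.16 (adjusted p = 0.000232 for the difference). Without untreated Jurkat replicate 3, the library that stood apart, the Jurkat change was -0.23 (adjusted p = 0.0459). The Jurkat call ended with totals equalized without 7SL RNA (adjusted p = 0.0616) and in a fit of the Jurkat libraries alone (adjusted p = 0.06).

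Between the lines, the response to chidamide differed for 35 members. Molt-4 minus Jurkat was above 0 for 18 (14.9%, background 19.8%) and below 0 for 17 (14%, background 12.1%), with a median of -0.0027 over members against 0.04 over all rows. Under quantile normalization 14 were above 0 and 29 below, where 2271 and 2678 of all 13840 rows were. LINC01136, now named BTG2-DT, was the highest: it was at 7.38, 9.74 and 8.55 FPKM in treated Molt-4 against 0, 0 and 0.68 FPKM in untreated Molt-4, and at 3.18, 1.57 and 2.77 FPKM in treated Jurkat against 0.5, 0.56 and 1.65 FPKM in untreated Jurkat. Treated and untreated libraries were far apart in Molt-4 and overlapped in Jurkat, where untreated replicate 3 (1.65 FPKM) lay above treated replicate 2 (1.57 FPKM). The log2 changes were 3.0 ± 0.26 in Molt-4 (adjusted p = 1.19e-06) and 0.90 ± 0.26 in Jurkat (adjusted p = 0.0114), a difference of 2.10 ± 0.37 (adjusted p = 0.00114). With any 1 library left out, this difference ran from 1.83 to 2.35. Untreated Jurkat replicate 3 was the only untreated library of LINC01136 at 1 FPKM or more. The gene needed treated libraries to meet the rule, so the values tested helped to select it and are given as a description. LINC00479, listed at 0 in all untreated libraries, was at 4.02, 4.38 and 4.07 FPKM in treated Molt-4 and at 0.36, 0.62 and 1.25 FPKM in treated Jurkat. LINC01484 was at 1.3, 2.51 and 2.26 FPKM in treated Molt-4 and listed at 0 in all other libraries. LINC01589, also at 0 in all untreated libraries, was at 1.27, 2.92 and 2.46 FPKM in treated Molt-4 and at 0.51, 0.21 and 0.39 FPKM in treated Jurkat. LINC00479, LINC01484 and LINC01589 met the rule through treated libraries alone, so these values are the ones that selected them and are given as a description.

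LINC00887 was at 1.9, 2.43 and 1.6 FPKM in treated Molt-4 against 10.57, 9.91 and 6.79 FPKM in untreated Molt-4, and was listed at 0 in all Jurkat libraries. Its fall in Molt-4 was -1.75 ± 0.14 on the log2 scale (adjusted p = 6.82e-07). With Jurkat listed at 0 no response could be measured there, so its place at the low end of the difference is the Molt-4 change alone. LINC01021, or PURPL, a transcript induced by p53 and known to restrain p53 levels, was at 2.06, 1.47 and 1.48 FPKM in treated Jurkat against 0, 0.04 and 0.06 FPKM in untreated Jurkat, and at 0.89, 2.67 and 1.54 FPKM in treated Molt-4 against 1.81, 2.03 and 2.76 FPKM in untreated Molt-4. It rose in Jurkat (1.36 ± 0.20, adjusted p = 0.000111), its groups overlapped in Molt-4 (-0.29 ± 0.20, adjusted p = 0.241), and the difference was -1.65 ± 0.29 (adjusted p = 0.000939). LINC00689 was at 0.93, 1.37 and 1.01 FPKM in treated Molt-4 against 2.6, 3.99 and 4.32 FPKM in untreated Molt-4, and at 0.25 to 0.37 FPKM in treated Jurkat and 0.07 to 0.1 FPKM in untreated Jurkat. The response of LINC00689 was -1.13 ± 0.14 in Molt-4 (adjusted p = 2.16e-05) and 0.25 ± 0.14 in Jurkat (adjusted p = 0.141), with a difference of -1.38 ± 0.20 (adjusted p = 0.000233). From its level in untreated Jurkat a fall could hardly show, so this difference is mainly the Molt-4 change. LINC01593 was detected in treated Jurkat alone, at 1.49, 1.4 and 1.29 FPKM, and listed at 0 in every other library. These treated libraries are what selected it.

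The 3 members with opposite calls were LINC00958, LINC01694 and LINC00624. LINC01694 was at 6.72, 9.51 and 8.1 FPKM in treated Molt-4 against 3.23, 4.37 and 4.11 FPKM in untreated Molt-4, and at 0.85, 0.55 and 0.44 FPKM in treated Jurkat against 1.08, 0.96 and 1.27 FPKM in untreated Jurkat. The groups did not overlap in either line and lay in opposite order, with log2 changes of 0.89 ± 0.14 in Molt-4 (adjusted p = 0.000173) and -0.39 ± 0.14 in Jurkat (adjusted p = 0.0341), and a difference of 1.28 ± 0.20 (adjusted p = 0.000465). The Jurkat call of LINC01694 ended when untreated Jurkat library 1 or 3, or treated Jurkat library 2 or 3, was left out (adjusted p of 0.0671 to 0.122), and with no level filter (0.0552). LINC00958 was at 19.33, 19.45 and 16.35 FPKM in treated Molt-4 against 29.42, 30.05 and 31.39 FPKM in untreated Molt-4, a log2 change of -0.69 ± 0.10 (adjusted p = 9.18e-05). In Jurkat it was at 0.19 to 0.48 FPKM with chidamide and 0.04 to 0.08 FPKM without. Its Jurkat change of 0.31 ± 0.10 (adjusted p = 0.0221) was at -0.08 under quantile normalization and lost its call without untreated Jurkat library 2 (adjusted p = 0.0564) or without treated Jurkat library 1 (adjusted p = 0.0987). LINC00624, which overlaps CHD1L, was at 1.7 to 2.15 FPKM in treated Molt-4 against 1.36 to 1.47 FPKM in untreated Molt-4, and at 0.62 to 1.11 FPKM in treated Jurkat against 1.22 to 1.39 FPKM in untreated Jurkat. Its log2 change was 0.29 ± 0.11 in Molt-4 (adjusted p = 0.0345) and -0.35 ± 0.11 in Jurkat (adjusted p = 0.0169). Under quantile normalization the Molt-4 value was -0.40 and called lower (adjusted p = 0.00599), the direction of Jurkat. With a constant of 0.1 the Molt-4 change was not called (adjusted p = 0.0738). The Molt-4 call of LINC00624 ended without any 1 of the untreated Molt-4 replicates or without treated Molt-4 replicate 1 or 2 (adjusted p of 0.056 to 0.106), and its Jurkat call when untreated Jurkat library 2, or treated Jurkat library 1 or 3, was left out (0.051 to 0.0777).

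Between the untreated lines, 39 members were higher in Molt-4 than in Jurkat (32.2%, background 27.9%) and 25 lower (20.7%, background 37.5%). Of the 39, 23 were under 1 FPKM in every Jurkat library and met the rule through Molt-4 alone. Of the 25, 1 was under 1 FPKM in every Molt-4 library and met it through Jurkat alone. For these a difference between the lines is part of their selection, and LINC00958, LINC01287 and LINC01307 are among the 23. LINC00665 reached 1 FPKM in Jurkat only in treated replicate 2, so it too needed Molt-4 libraries to meet the rule. The values that compare the lines helped to select it. The 4 highest of the called members were LINC00958, LINC01287, LINC00665 and LINC01307, all at 11.9 FPKM or more in untreated Molt-4 and at 0.6 FPKM or less in untreated Jurkat. LINC00958 was at 30.3 ± 1.01 FPKM in untreated Molt-4 against 0.06 ± 0.02 FPKM in untreated Jurkat (adjusted p = 1.4e-12). LINC01287 was at 35.91, 37.81 and 33.59 FPKM in treated Molt-4 and at 24.4, 30.66 and 23.95 FPKM in untreated Molt-4, against a listed 0 in both Jurkat groups, and its rise in Molt-4 passed the test (log2 change 0.43 ± 0.10, adjusted p = 0.00251). LINC00665 was at 8.89 ± 0.927 FPKM in treated Molt-4 and 18.0 ± 1.41 FPKM in untreated Molt-4, against 0.603 ± 0.411 FPKM in treated Jurkat and 0.32 ± 0.262 FPKM in untreated Jurkat. It fell with chidamide in Molt-4, with a log2 change of -0.94 ± 0.19 (adjusted p = 0.000866). LINC00665 shares 251 near-identical bases with LINC01535, so the assignment of its reads is uncertain. LINC01307 was at 12.8 ± 1.11 FPKM in untreated Molt-4 against 0.38 ± 0.147 FPKM in untreated Jurkat, and did not pass the test with chidamide in either line (adjusted p = 0.0916 in Molt-4 and 0.334 in Jurkat).

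Of the members lower in untreated Molt-4, LINC01806 was at 1.74 ± 0.19 FPKM in treated Molt-4 and 1.96 ± 0.444 FPKM in untreated Molt-4, against 14.7 ± 0.333 FPKM in treated Jurkat and 15.8 ± 2.65 FPKM in untreated Jurkat, with a log2 difference between the untreated lines of -2.5 ± 0.13 (adjusted p = 5.34e-09). With chidamide the libraries overlapped the untreated ones in each line. LINC01225 and LINC01882, which also fell with chidamide, had log2 differences of -1.86 ± 0.15 (adjusted p = 3.4e-07) and -1.82 ± 0.25 (adjusted p = 4.31e-05). LINC01771, now LRP8-DT, was at 0, 0.24 and 0.92 FPKM in untreated Molt-4 against 4.18, 3.39 and 3.73 FPKM in untreated Jurkat (-1.83 ± 0.28, adjusted p = 8.88e-05). Treated replicate 1 was its only Molt-4 library at 1 FPKM or more. LINC01771 therefore needed Jurkat libraries to meet the rule, and the values tested helped to select it.

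In all, 30 members (24.8%, against 7.26% of all rows) were under 1 FPKM in every Jurkat library, and 4 (3.31%, against 2.91%) in every Molt-4 library: LINC00324, LINC00672, LINC01679 and LINC01593. They met the level rule through the other line alone, so a difference between the lines is part of their selection. As many as 13 members (10.7%, against 1.20% of all rows) were listed at 0 in all 6 Jurkat libraries, and 1, LINC01593, in all 6 Molt-4 libraries. A listed 0 in FPKM values without counts does not show that an RNA is absent. With chidamide, 4 of the 13 were called higher in Molt-4 (LINC01287, LINC01608, LINC01484 and LINC02037) and 4 lower (LINC00887, LINC00885, LINC00960 and LINC01224), where 35.4% of all rows tested were higher and 24.6% lower. LINC01484 and LINC02037 met the rule through treated libraries alone and LINC01224 through untreated ones alone, so their direction follows from the rule. LINC00887, LINC02036 and LINC02037 lie within 500 kb of each other on chromosome 3 in GENCODE, and HES1, a direct target of NOTCH1, is the coding gene nearest to LINC02036. LINC02036, named after its values were seen, was at 3.25, 1.98 and 2.86 FPKM in treated Molt-4 against 7.81, 8.51 and 6.07 FPKM in untreated Molt-4, and at 0 in 5 of 6 Jurkat libraries and 0.09 FPKM in the remaining one. LINC02037 lay the other way, at 1.4, 1.37 and 1.35 FPKM in treated Molt-4 against 0.52, 0.39 and 0.53 FPKM in untreated Molt-4. The log2 changes in Molt-4 were -1.20 ± 0.14 for LINC02036 (adjusted p = 1.39e-05) and 0.68 ± 0.08 for LINC02037 (adjusted p = 1.2e-05), so 2 neighbours fell and 1 rose. For LINC02037 the values tested are those that selected it, so its rise is given as a description. HES1 was at 42.3 ± 2.56 FPKM in treated Molt-4 against 31.2 ± 0.470 FPKM in untreated Molt-4, and at 1.62 ± 0.469 FPKM in treated Jurkat against 1.03 ± 0.280 FPKM in untreated Jurkat (SD, n = 3).

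**Figure D3:**
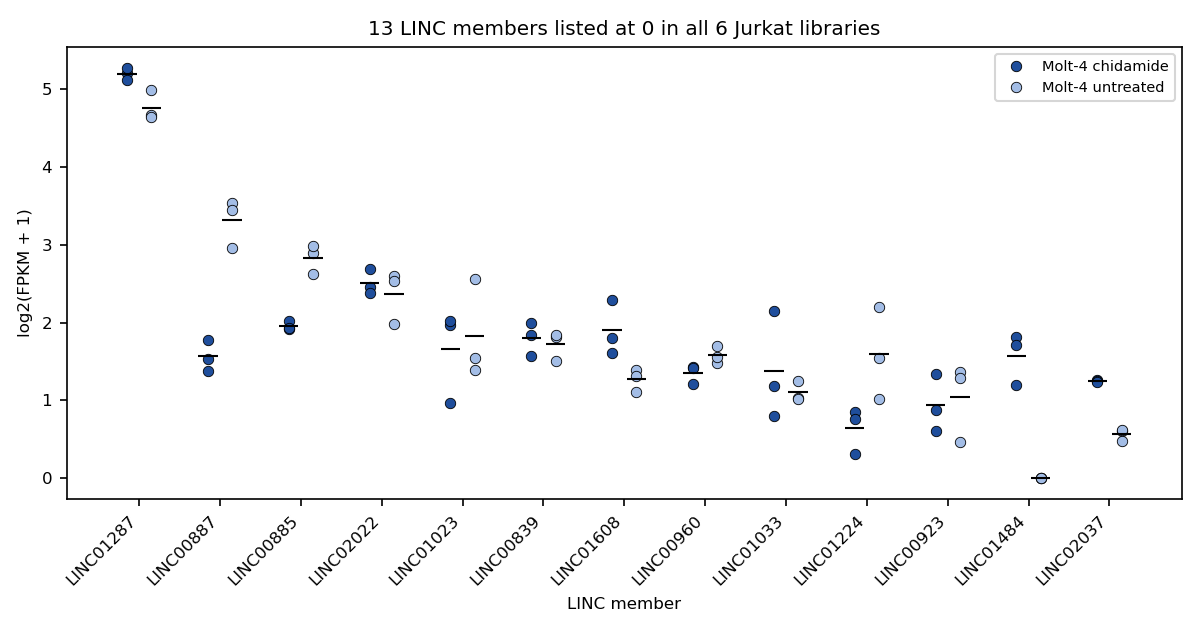
Levels in Molt-4, as log2(FPKM + 1), of the 13 members listed at 0 in all 6 Jurkat libraries, with chidamide and untreated, each library as a point and the group mean as a line. LINC01287 is the highest, LINC00887 and LINC00885 were lower with chidamide, and LINC01484 is listed at 0 in all untreated libraries.

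Marker genes of other cell types also differed between the groups. The summed level of 3 epithelial markers, all at 1 FPKM or more in Molt-4, was 186 to 192 FPKM in treated Molt-4 and 78.7 to 84.9 FPKM in untreated Molt-4, against at most 1.85 FPKM in Jurkat, where EPCAM was at 0. Myeloid markers summed to 68.1 to 68.4 FPKM in treated Molt-4 and to 3.25 FPKM or less in the other groups, with MPO at 0 in untreated cells and 2 of 4 markers at 1 FPKM or more in treated Molt-4. Fibroblast markers summed to 34.3 to 41.8 FPKM in treated Molt-4 and 37.0 to 46.9 FPKM in treated Jurkat, and to 1.99 FPKM or less in untreated cells, with COL1A2 at 0, and 2 of 3 reached 1 FPKM in treated Molt-4 and 1 of 3 in treated Jurkat. B-lineage markers summed to 11.6 to 12.5 FPKM in treated Jurkat against 24.7 to 29.7 FPKM in untreated Jurkat. In Molt-4 they summed to 14.8 to 18.7 FPKM with chidamide against 3.10 to 4.61 FPKM without. Of the 4 B-lineage markers, 2 reached 1 FPKM in treated Molt-4 and 1 in each other group. MS4A1 was at 0 in all but treated Jurkat, and PAX5 was at 0 in untreated Molt-4. The part of these markers in the members' differences was not tested.

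Members were then set beside the coding genes next to them, from GENCODE release 29. Of 115 members found there, 16 start head-to-head with a coding gene (opposite strands, starts within 1000 bases), 17 overlap one otherwise and 82 are separate. Of the 16, 15 face a gene that was tested. The library kit does not mark the strand, so where a member and a neighbour overlap their reads cannot be told apart. In Jurkat 2 of the 15 pairs rose together (LINC01136 with BTG2 and LINC00441 with RB1), 2 fell together (LINC01089 with SETD1B and LINC01534 with ZNF567) and 1 was opposed (LINC01547 higher, FAM207A lower). A further 5 had a member that rose beside a partner that was not called. In Molt-4 1 pair rose together (LINC01136 with BTG2), 1 fell together (LINC01089 with SETD1B), and LINC01547 with FAM207A was again opposed. Of 63 separate pairs, 15 rose together and 1 fell together in Jurkat, and 16 rose and 2 fell together in Molt-4. A member rose beside a neighbour that fell in 4 of these pairs in Jurkat and 5 in Molt-4, and fell beside one that rose in 3 in Jurkat and 4 in Molt-4. Beside separate members that were not called, 12 neighbours rose and 10 fell in Jurkat, and 14 rose and 6 fell in Molt-4. Of all rows tested, 30.9% rose and 25.4% fell in Jurkat, and 35.4% and 24.6% in Molt-4. No background of other gene pairs was made, so nothing is read from the pair counts.

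BTG2, an antiproliferative gene that p53 induces, was at 43.2 ± 2.33 FPKM in treated Molt-4 against 5.59 ± 0.119 FPKM in untreated Molt-4, and at 8.90 ± 0.847 FPKM in treated Jurkat against 3.85 ± 1.01 FPKM in untreated Jurkat (SD, n = 3 each). Its log2 changes, 2.74 ± 0.13 in Molt-4 and 1.05 ± 0.13 in Jurkat, lay near those of LINC01136, 3.0 and 0.90. SETD1B, the gene of a histone H3 lysine methyltransferase, had log2 changes of -0.53 ± 0.07 in Jurkat and -0.77 ± 0.07 in Molt-4, beside -0.89 and -0.94 for LINC01089. LINC00441 faces RB1, the retinoblastoma tumour suppressor gene, which was at 138 ± 4.35 FPKM in treated Jurkat against 51.6 ± 3.11 FPKM in untreated Jurkat, and at 89.6 ± 3.93 FPKM in treated Molt-4 against 50.0 ± 0.788 FPKM in untreated Molt-4. LINC00441 itself was at 15.32, 10.61 and 18.92 FPKM in treated Jurkat against 0.5, 0.35 and 9.3 FPKM in untreated Jurkat, and at 0.16, 20.55 and 0.25 FPKM in treated Molt-4 against 0.16, 0.08 and 0.19 FPKM in untreated Molt-4. In Molt-4 a single treated library was high, and in Jurkat untreated replicate 3 is near the treated libraries. That replicate was the only untreated library of LINC00441 at 1 FPKM or more, so the treated values tested helped to select it. The log2 change of LINC00441 was 2.5 ± 0.99 in Jurkat (adjusted p = 0.0487) and 1.46 ± 0.99 in Molt-4 (adjusted p = 0.224). Without untreated Jurkat replicate 3 the Jurkat change was 3.45 (adjusted p = 0.00979). Its Jurkat call, at the edge of the threshold, ended in 13 of the 20 alternatives, with adjusted p between 0.0505 and 0.157, among them each left-out treated Jurkat replicate, untreated Jurkat replicates 1 and 2 and each untreated Molt-4 replicate.

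**Figure D4:**
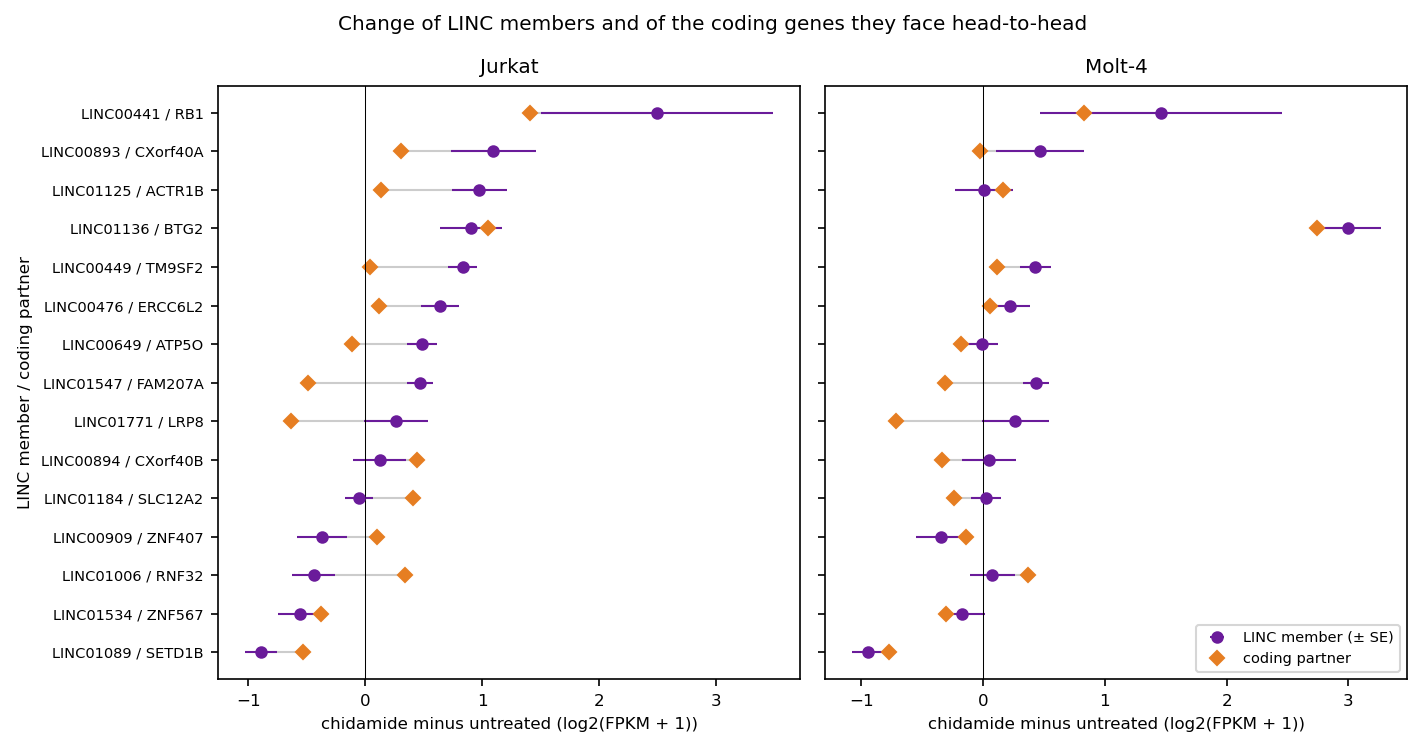
Change with chidamide, as the difference of mean log2(FPKM + 1), of 15 members (circles, ± SE) and of the coding gene each faces head-to-head (diamonds), in Jurkat (left) and Molt-4 (right). LINC01136 and BTG2 lie together at 3.0 and 2.74 in Molt-4, while LINC01547 and FAM207A lie on opposite sides of 0 in both lines.

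Members with near-identical copies carry less certain values. A match of 98% identity or more over at least 200 bases outside their own locus was found for 12 members, among them the pairs LINC00893 with LINC00894 and LINC00869 with LINC01138. LINC00893 was called higher in Jurkat (log2 change 1.10 ± 0.36, adjusted p = 0.0214), and its near-copy LINC00894 was not (0.12 ± 0.23, adjusted p = 0.679). How reads shared by such copies were assigned is not given in the sources used here.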

How the data were processed

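RNA of 2 cell lines with and without chidamide was sequenced as 4 groups of 3 libraries, prepared with an Illumina TruSeq kit per the labels' protocols. The authors deposited FPKM per gene symbol. Per the submitters' processing notes they used STAR, HTSeq and DESeq2 with hg19, without versions or the order of the steps. FPKM holds no read counts, so the depth is unknown. Of 5070 low values, 30.5% lay within 0.15 of a whole multiple of what 1 read would be worth, where 30.0% would by chance, so whole reads were not recovered. All value columns were used.

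Rows with at least 1 FPKM in 3 of 12 libraries were fitted as log2(FPKM + 1), a scale that understates changes of low genes. limma 3.58.1 in R 4.3.3 (lmFit and eBayes with trend) fitted 1 mean per group with 8 residual degrees of freedom, for 4 comparisons. Two-sided p-values were corrected over all 13840 rows (Benjamini-Hochberg) and called under 0.05. The fit was tested on simulated data. Replicate numbers did not pair the libraries: over 18 pairs with the same number, deviations from the group means correlated with r of -0.0858 to 0.0408, and 1 of 12 libraries correlated best with its own number. No 2 libraries of a group had more than 0.735% identical values.

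Members and lists were chosen with earlier results of these data known. Named members were the 6 largest rises and falls in each line, the 5 highest and 5 lowest called alike in both lines, opposite calls, the 4 highest and lowest of the other 2 comparisons, the 6 most abundant and those with a known role; LINC02036, LINC02037, LINC00893, LINC00894 and other neighbours or copies were added after seeing values. Neighbours came from GENCODE 29, names and start regions from RefSeq (GRCh38.p14), and copies from BLAST 2.17.0. The labels' build differs from these, so no position of a measured value was taken from them. The 20 alternatives were a pseudocount of 0.1, no filter, a minimum of 5 FPKM, median-of-ratios scaling, quantile normalization, equal totals without 7SL RNA, the compared groups alone, the replicate block and each library left out. The result of 1 marker list is not reported here.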

Additional observations from a re-analysis of the deposited data

Results flagged for a closer look

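The difference of the log2 changes with chidamide, Molt-4 minus Jurkat, passed the test (adjusted p under 0.05 in limma) for 16 of the members picked by the naming rules. The log2 difference of the responses was above 0 for LINC01136 (2.10), LINC00479 (1.60), LINC01484 (1.57), LINC01694 (1.28), LINC01225 (1.20), LINC01589 (1.20), LINC02210 (0.73), LINC00624 (0.64) and LINC01287 (0.43). LINC01225 fell in both lines and less so in Molt-4. The difference was below 0 for LINC00958 (-1.0), LINC00977 (-1.16), LINC00665 (-1.21), LINC01593 (-1.26), LINC00689 (-1.38), LINC01021 (-1.65) and LINC00887 (-1.75). Of these, LINC00977 fell in both lines and more so in Molt-4. For LINC01484, LINC01287 and LINC00887, listed at 0 in all Jurkat libraries, and LINC01593, listed at 0 in all Molt-4 libraries, the value is the change of the other line alone. Since a fall of LINC00887 could not appear in Jurkat, no difference of responses was measured for it. LINC00958, LINC00665 and LINC00689 had means of 0.06, 0.32 and 0.09 FPKM in untreated Jurkat. On this scale a fall from such levels could hardly show there, so their differences are mainly the Molt-4 change. LINC00479, LINC01484, LINC01589 and LINC01593 met the level rule through treated libraries alone, so the values tested are those that selected them. LINC01136 also needed treated libraries to meet the rule, so the values tested helped to select it. Members named outside those rules passed as well, among them LINC02036 (-1.24) and LINC00885 (-0.88). Both were at or near 0 FPKM in Jurkat, so these values are mainly the Molt-4 change. Groups of 3 libraries were not tested for single outlying libraries.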

How the results depend on the processing

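Of 64 tests of named members, 49 kept their direction and their side of the threshold under all alternatives run, and of 1253 runs 1188 did. Quantile normalization moved the counts of members higher to 20 in Jurkat and 22 in Molt-4, and of members lower to 23 in Jurkat, 56 in Molt-4 and 29 for the difference of responses. Over all 13840 rows it gave 3589 higher in Jurkat and 3540 in Molt-4, and 4039 lower in Jurkat, 5039 in Molt-4 and 2678 for the difference. A minimum of 5 FPKM left 54 members to test, with 21 higher in Jurkat, 18 higher and 13 lower in Molt-4, 8 higher and 8 lower for the difference, and 16 higher in untreated Molt-4. These counts are of 54 and not of 121 members, so they do not show a change in the share called. No share of all rows is given for this minimum, for the left-out libraries or for the replicate block, and nothing is read from those counts. Without 1 replicate each, the counts ran from 34 to 49 higher and 9 to 13 lower in Jurkat, 38 to 46 and 18 to 22 in Molt-4, 16 to 18 and 14 to 20 for the difference, and 37 to 42 and 23 to 29 between untreated lines. With the replicate block 43 and 12 members were called in Jurkat, 43 and 20 in Molt-4, 18 and 17 for the difference, and 38 and 26 between untreated lines, and of the named members LINC00441 lost its Jurkat call (adjusted p = 0.0618).

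Signs turned for some members. Under quantile normalization the log2 change was -0.40 for LINC00624 in Molt-4, where it was called lower (adjusted p = 0.00599 in limma). It was -0.0801 for LINC00958 and 0.052 for LINC02210 in Jurkat, and -0.066 for LINC01184 in Molt-4. With median-of-ratios scaling LINC00998 was at -0.0264 and LINC01184 at -0.0227 in Molt-4, and with equal totals without 7SL RNA LINC01184 was at 0.0211 and LINC02210 at 0.032 in Jurkat. Without 1 replicate each, LINC00998 ran from -0.0091 to 0.0419 in Molt-4, LINC01184 from -0.0495 to 0.144 in Molt-4 and from -0.158 to 0.0597 in Jurkat, and LINC02210 from -0.173 to 0.0786 in Jurkat. LINC00998, LINC01184 and LINC02210 had not passed the test in those lines. The cause was not tested. Low levels and unknown depth limit the precision of members near 1 FPKM.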
